A study of Mus musculus with 18 samples.

Results

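The genes described here are 31 markers of astrocytes and of radial glia, the progenitor cells that line the developing cortex and later give rise to astrocytes. They were read as rows of a raw count table of RNA sequencing from mouse cortical neuron cultures, matched by gene symbol, and all 31 of 31 had a row among the 37310 genes of the table. Of these, 30 passed the filter on low counts and were tested together with 15433 genes in all. Gjb6, the gap junction protein connexin 30 of mature astrocytes, did not pass: it had 0 to 4 counts per library and 0 to 0.0619 CPM (counts scaled to library size).

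The cultures came from wild-type mice (WT) or from mice knocked out for Fmr1 (KO), which encodes FMRP, an RNA-binding protein lost in fragile X syndrome. At 7 days in vitro they received vehicle (DMSO) or JQ1, a small molecule that displaces the BET bromodomain proteins from acetylated chromatin, for 24 h. The medium was Neurobasal with B27 in every group, and the labels give neither the allele and strain nor whether replicates are separate cultures. The p-values therefore measure the spread between these libraries, which may be technical, except that KO replicate 3 differed from the other KO libraries in sex-linked transcripts (below). Each genotype had 3 libraries in vehicle and 3 in JQ1, called WT DMSO, WT JQ1, KO DMSO and KO JQ1 below, and the samples treated with THZ1 were not analysed here.

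Astrocytes take up glutamate and potassium, move water through endfeet on vessels, couple to one another through gap junctions and supply neurons with lipid and glutamine. Radial glia share with them the glutamate transporter Slc1a3, the lipid-binding protein Fabp7 and the intermediate filaments vimentin and nestin, while Aqp4, S100b and Gfap mark later astrocytes. Notch, BMP and LIF-type cytokines acting through STAT3 switch cortical progenitors towards astrocytes after neurogenesis. Serum-free Neurobasal medium with B27 favours neurons, and such cultures keep a minority of glia.

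Gene counts ran from 21643592 to 134110850 per library, and pairs of libraries within a group scattered beyond what counting allows, at 4.94 to 41.4 in chi-square over its degrees of freedom. Fmr1 checked the labels: it read 119 to 124 CPM in WT DMSO, 21.5 to 29.4 in KO DMSO, 135 to 153 in WT JQ1 and 26.0 to 34.6 in KO JQ1. Neuron markers summed to 9360 to 11180 CPM and the glial genes to 1598 to 3609 CPM, or 0.156% to 0.375% of counts. Microglia markers summed to 9.50 to 19.3 CPM and endothelial markers to 2.54 to 5.33 CPM. Both KO libraries of replicate 3 stood apart in sex-linked transcripts, with Xist at 4.29 and 4.34 CPM against at least 230 CPM elsewhere, so the counts of called genes that use KO libraries are also given without them. In bulk RNA, fewer cells of a type and less RNA per cell cannot be told apart.

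Per length of exon, the glial genes spanned a wide range in WT DMSO from Fabp7 down to Pax6 and Ntsr2. Fabp7 was highest at 575 ± 62.2 CPM per kilobase (SD, n = 3), followed by Apoe, the lipid carrier apolipoprotein E, at 161 ± 16.5. Next came Vim at 48.8 ± 1.65, Glul at 47.7 ± 4.19 and Slc1a3 at 47.3 ± 5.02 CPM per kilobase, whose values lay within their spread of each other. Ptprz1 followed at 36.5 ± 4.16, Sox2 lay at 17.6 ± 2.65, Nes at 11.3 ± 0.472 and Slc1a2 at 10.7 ± 0.724. Aqp4 reached 3.74 ± 0.547, Gfap 2.98 ± 0.457, S100b 0.927 ± 0.0747 and Slc7a10 0.743 ± 0.0911 CPM per kilobase. At the bottom, Pax6 at 0.689 ± 0.0862 and Ntsr2 at 0.673 ± 0.0981 also overlapped within their spread. Lengths came from an annotation other than the authors', so levels between genes are approximate.

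**Figure D1:**
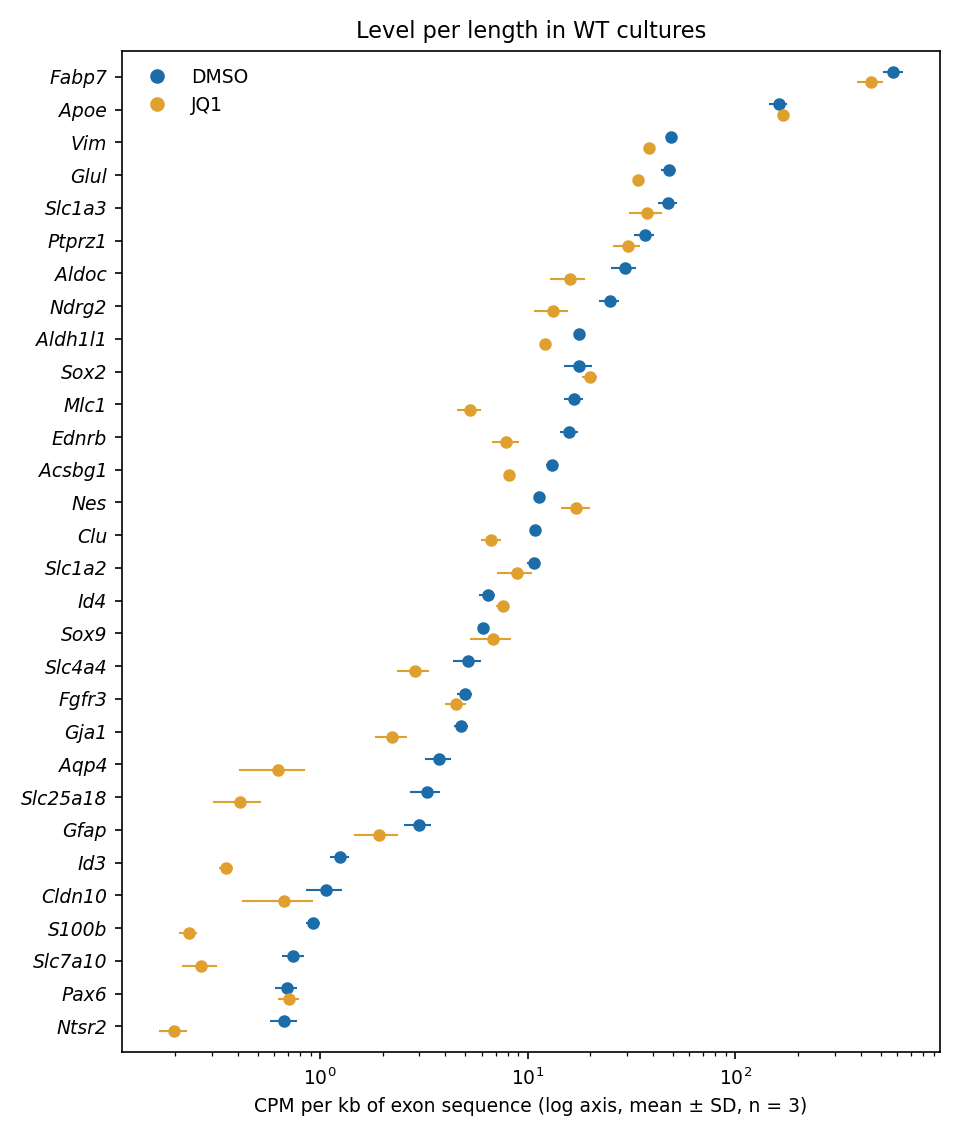
Level of the 30 tested glial genes per kilobase of exon in WT cultures in DMSO (blue) and JQ1 (yellow), on a log axis, as mean and SD of 3 libraries. Fabp7 sits highest at 575 and Ntsr2 lowest at 0.673 CPM per kilobase in DMSO.

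JQ1 lowered most of these genes in both genotypes, by amounts that differed widely between members. In WT 18 of 30 fell and 2 rose at an adjusted p under 0.05 (edgeR quasi-likelihood test, Benjamini-Hochberg over all 15433 genes), and in KO 17 fell and 2 rose. Over all genes tested, 29.3% fell and 25.9% rose in WT, and 29.4% fell and 27.7% rose in KO. A fall of over 2-fold was called for 8 of 30 members in WT and 7 in KO, against 10.4% and 10.3% of all genes. The 30 log2 changes had a median of -0.57 in WT and -0.57 in KO, beside -0.0043 and 0.0014 over all genes tested. Libraries of the groups did not overlap, with JQ1 lower, for 18 members in WT and 17 in KO, against 32.3% and 31.1% of all genes. Scaled to the ERCC spike-ins, which moved the median of all genes to -0.63 in WT and 0.067 in KO, 24 members fell in WT, 9 fell in KO and 0 rose in either, against 37.7% and 8.51% of all genes lower in that setting. In KO 17 fell and 1 rose without both KO replicate 3 libraries, against 25.7% of all genes lower and 25% higher. The responses of WT and KO rest on separate libraries: 17 falling genes were called in both, which is 94.4% of those in WT and 100% of those in KO, and Gfap was called in WT alone. The share of all genes called in both genotypes was not counted, so this sharing is not shown to be particular to the members.

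**Figure D2:**
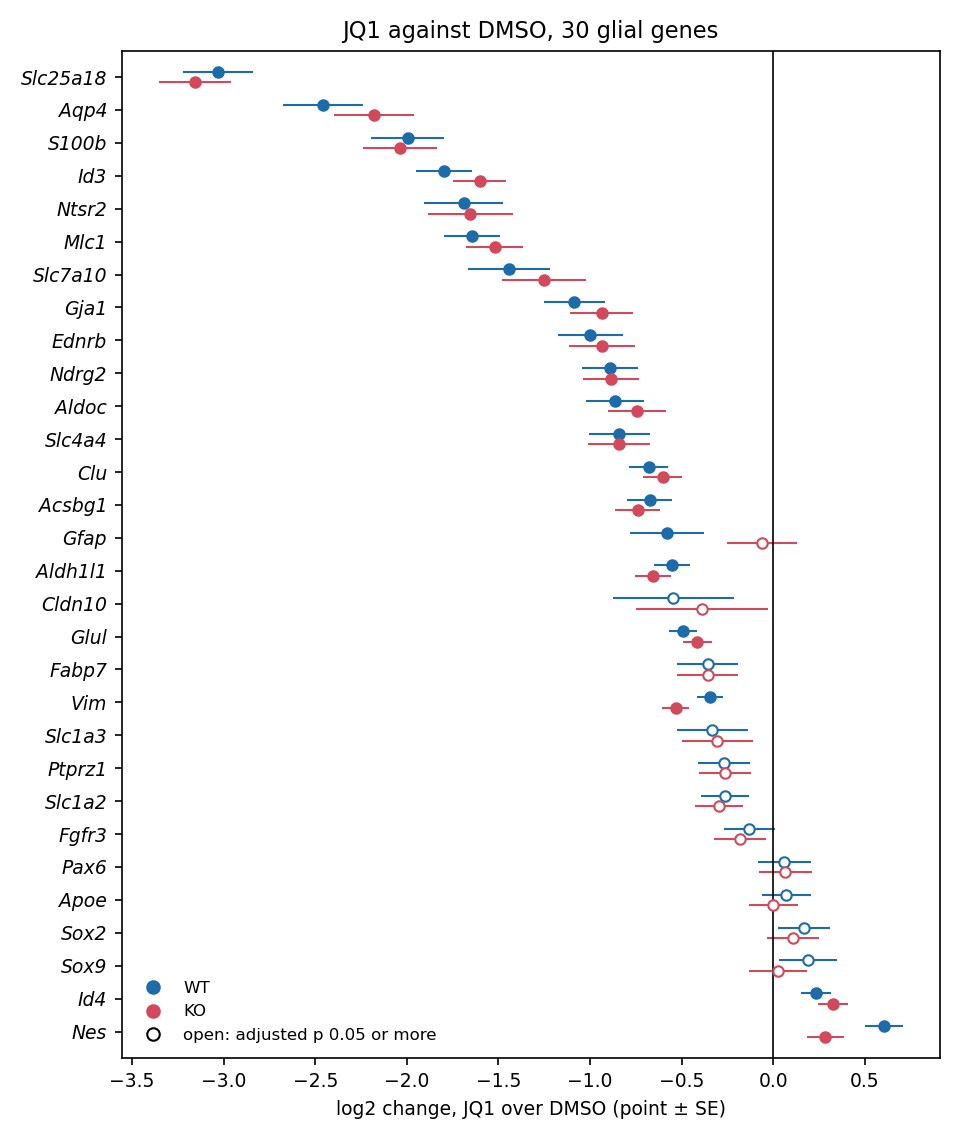
log2 change under JQ1 against DMSO for the 30 tested glial genes, in WT (blue) and KO (red), as point and SE from the edgeR fit of 3 libraries a group, with open points for adjusted p of 0.05 or more. Values run from -3.03 in WT for Slc25a18 to 0.60 for Nes, which with Id4 lay above 0 under scaling to gene counts but below 0 in WT under scaling to spike-ins.

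Among channels and transporters 6 of 9 tested fell in each genotype. Slc25a18, a mitochondrial glutamate carrier, read 5.30, 6.0 and 7.34 CPM in WT DMSO, 4.91, 6.03 and 6.11 in KO DMSO, 0.577, 0.799 and 0.980 in WT JQ1 and 0.501, 0.781 and 0.508 in KO JQ1. Every JQ1 library lay far below every DMSO library, and its log2 change was -3.03 ± 0.19 (SE) in WT and -3.16 ± 0.20 in KO (edgeR adjusted p 2.6e-08 and 2.1e-08). That is a fall by 8.18-fold in WT and 8.93-fold in KO, the largest among the members in both genotypes. Aqp4, the water channel of endfeet, read 19.6, 24 and 26.3 CPM in WT DMSO, 15.2, 20.5 and 21.8 in KO DMSO, 4.17, 5.10 and 2.43 in WT JQ1 and 2.80, 5.12 and 4.46 in KO JQ1. The groups did not overlap, and Aqp4 fell by 5.49-fold in WT and 4.54-fold in KO (log2 -2.46 ± 0.22 and -2.18 ± 0.22, edgeR adjusted p 5.7e-07 and 1.5e-06).

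Mlc1, a membrane protein of astrocyte junctions whose loss causes a leukoencephalopathy, read 41.2, 48.2 and 51 CPM in WT DMSO, 33, 37.2 and 40.4 in KO DMSO, 13.9, 16.9 and 13.3 in WT JQ1 and 8.84, 15.5 and 13.7 in KO JQ1. Its JQ1 libraries all lay below its DMSO libraries, with log2 changes of -1.65 ± 0.15 in WT and -1.52 ± 0.16 in KO. Slc7a10, a transporter of small neutral amino acids that include D-serine, fell (log2 change -1.44 in WT and -1.25 in KO), from a low 1.57 ± 0.192 CPM in WT DMSO. In the GENCODE annotation 17.9% of its exon bases overlap Lrp3 on the opposite strand, and the strand setting of the counting was not stated by the sources at hand, which leaves its value uncertain. Gja1, the gap junction protein connexin 43, fell (log2 change -1.08 in WT and -0.94 in KO), and the bicarbonate cotransporter Slc4a4 fell as well (-0.84 and -0.84).

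The glutamate transporters moved less than these and passed the test in neither genotype. Slc1a2 (GLT-1), the main glutamate transporter of mature astrocytes, read 133, 136 and 151 CPM in WT DMSO, 104, 128 and 127 in KO DMSO, 113, 139 and 95.3 in WT JQ1 and 80.4, 111 and 99.8 in KO JQ1. Slc1a3 (GLAST), which radial glia also carry, read 358, 411 and 443 CPM in WT DMSO, 225, 288 and 329 in KO DMSO, 296, 385 and 280.0 in WT JQ1 and 148, 269.8 and 264 in KO JQ1. In both genes the JQ1 and DMSO libraries overlapped within each genotype. The log2 change of Slc1a2 was -0.26 ± 0.13 in WT and -0.30 ± 0.13 in KO (edgeR adjusted p 0.1 and 0.067), and that of Slc1a3 -0.33 ± 0.19 and -0.31 ± 0.19 (edgeR adjusted p 0.16 and 0.19). The claudin Cldn10 was the least precise member, with -0.55 ± 0.33 in WT and -0.39 ± 0.36 in KO on the log2 scale.

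Within single libraries the ratio of 2 members is free of the choice of scaling, and these pairs were chosen after their values were seen. Aqp4 stood at 5.75% ± 0.245 of Slc1a3 in WT DMSO (SD, n = 3) and 1.20% ± 0.292 in WT JQ1. In KO the same ratio was 6.83% ± 0.254 in DMSO and 1.83% ± 0.118 in JQ1, so in both genotypes the drop was larger than the spread between replicates. Mlc1 stood at 11.6% ± 0.121 of Slc1a3 in WT DMSO and 4.62% ± 0.210 in WT JQ1, and in KO at 13.3% ± 1.24 and 5.64% ± 0.402. Aqp4 and Mlc1 thus changed by another factor than Slc1a3 in the same libraries.

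**Figure D3:**
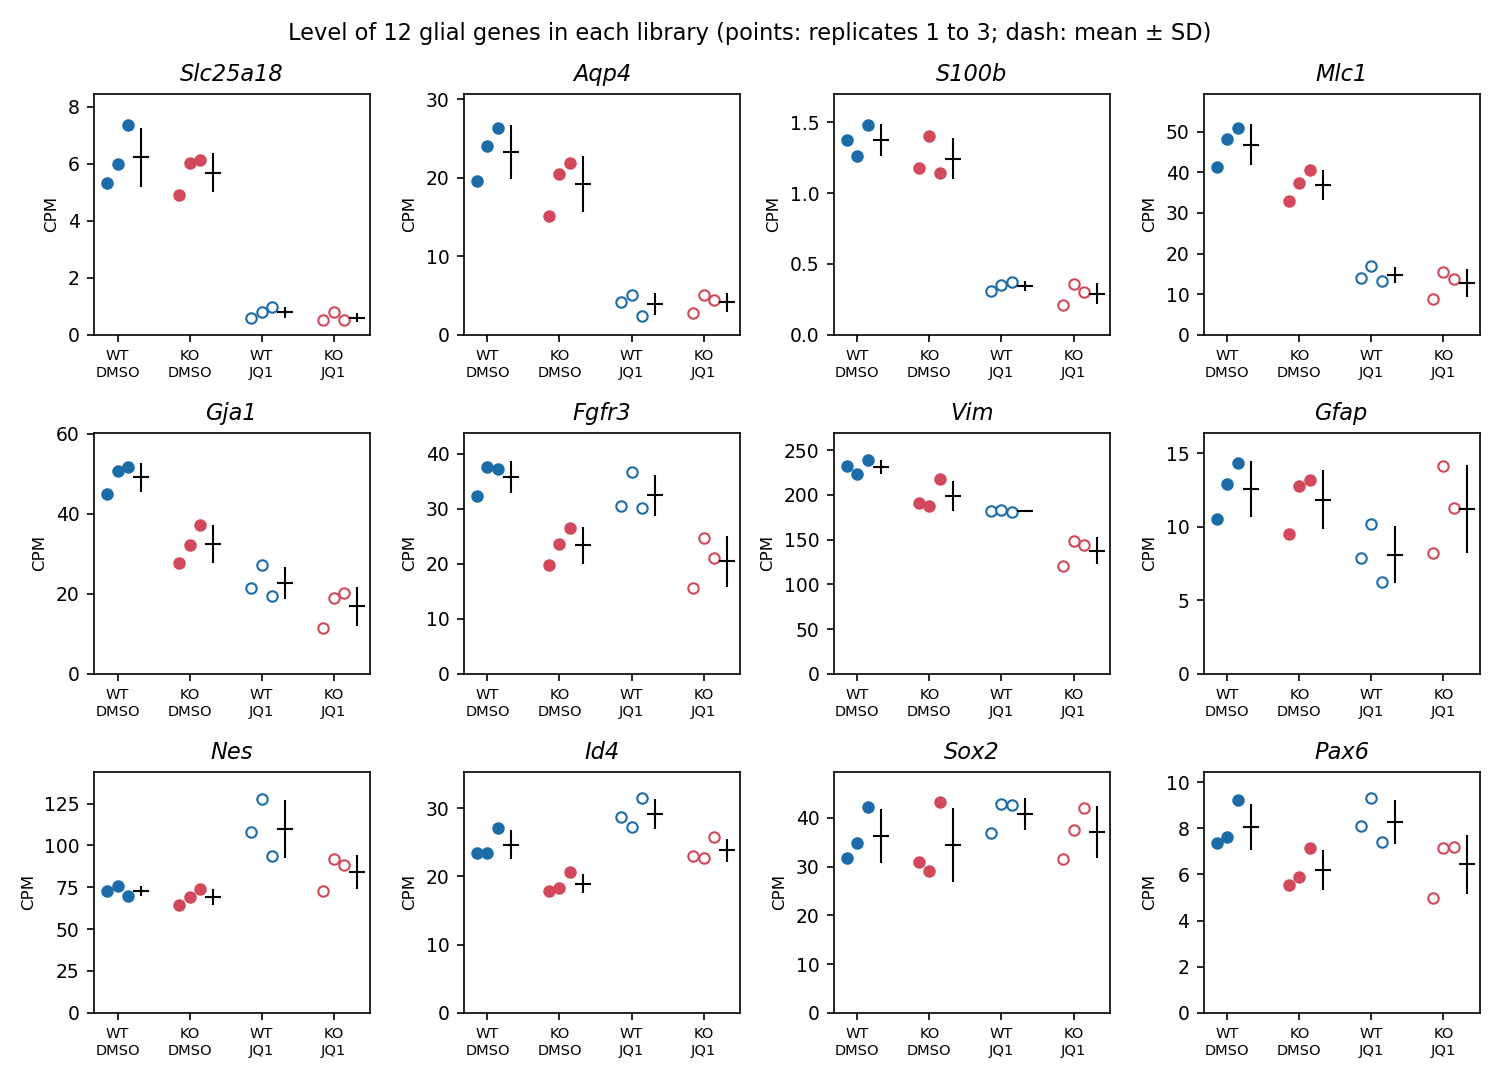
CPM of 12 glial genes in each of the 12 libraries (WT blue, KO red, DMSO filled, JQ1 open, points for replicates 1 to 3), with mean and SD as a dash and bar. Slc25a18, Aqp4, S100b and Mlc1 show no overlap between DMSO and JQ1 in either genotype.

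Among receptors, Ntsr2 and Ednrb fell in both genotypes. Ntsr2, a neurotensin receptor of astrocytes, fell (log2 change -1.69 in WT and -1.65 in KO), from 2.1 ± 0.306 CPM in WT DMSO. Ednrb, the endothelin receptor B, fell (log2 change -0.998 in WT and -0.93 in KO). The log2 changes of Fgfr3, a fibroblast growth factor receptor, were -0.13 ± 0.14 and -0.18 ± 0.14, and those of the receptor phosphatase Ptprz1 -0.27 ± 0.14 and -0.26 ± 0.14; none of these 4 values passed the test.

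All 4 metabolic enzymes fell in both genotypes, by less than 2-fold, though scaled to spike-ins 0 of the 4 were called in KO, with adjusted p (edgeR) of 0.155 to 0.633. Aldolase C, encoded by Aldoc, fell (log2 change -0.86 in WT and -0.74 in KO). Acsbg1, an acyl-CoA synthetase, fell (log2 change -0.67 in WT and -0.74 in KO), and the folate enzyme Aldh1l1, a widely used astrocyte marker, fell as well (-0.55 and -0.66). In GENCODE 11.05% of Aldh1l1 exon bases overlap the antisense gene Gm15756 on the opposite strand. Glul, the glutamine synthetase that converts the glutamate taken up, fell (log2 change -0.49 in WT and -0.41 in KO). Slc4a4, Clu, Vim and Ndrg2 likewise lost the KO call with that scaling. Among lipid carriers and secreted proteins Clu, or clusterin, fell (log2 change -0.68 in WT and -0.60 in KO), whereas the log2 change of Apoe was 0.072 ± 0.13 and 0.00042 ± 0.13 and did not pass the test. Fabp7 changed by -0.36 ± 0.17 and -0.36 ± 0.17 on the log2 scale, with edgeR adjusted p of 0.082 and 0.08.

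The filament and cytosolic genes went in opposite directions, except that the rise of Nes turned to a slightly negative value in WT with scaling to spike-ins. S100b, a calcium-binding protein, read 1.38, 1.26 and 1.48 CPM in WT DMSO, 1.18, 1.41 and 1.14 in KO DMSO, 0.308, 0.354 and 0.373 in WT JQ1 and 0.211, 0.357 and 0.299 in KO JQ1. Its groups did not overlap, and it fell by 3.99-fold in WT and 4.10-fold in KO (log2 -1.996 ± 0.20 and -2.04 ± 0.20). The JQ1 values of S100b rest on only 8 to 46 counts per library. Vim, the filament protein vimentin, read 233, 223 and 238 CPM in WT DMSO, 191, 188 and 218 in KO DMSO, 182, 183 and 181 in WT JQ1 and 120.1, 148 and 144 in KO JQ1. It fell without overlap of the groups (log2 change -0.35 in WT and -0.53 in KO). Nes, the filament protein nestin of progenitors, read 72.6, 75.7 and 69.6 CPM in WT DMSO, 64.4, 69.2 and 74.2 in KO DMSO, 108, 128 and 93.4 in WT JQ1 and 72.6, 91.8 and 88.5 in KO JQ1. All 3 WT JQ1 libraries lay above the WT DMSO libraries, while in KO the lowest JQ1 library lay below the highest DMSO library.

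Nes rose by 1.52-fold in WT and 1.22-fold in KO (log2 0.60 ± 0.10 and 0.28 ± 0.10, edgeR adjusted p 0.00019 and 0.027). Scaled to spike-ins, the WT value was -0.018 and the KO call was lost. The KO call was also lost without both KO replicate 3 libraries, and without KO DMSO replicate 1 or 2 or KO JQ1 replicate 2 or 3. Nes stood at 31.4% ± 2.38 of Vim in WT DMSO and 60.3% ± 9.18 in WT JQ1, and at 34.9% ± 1.72 and 61.3% ± 0.802 in KO. Ndrg2, a cytosolic protein of astrocytes, fell (log2 change -0.89 in WT and -0.89 in KO). Gfap, the filament of mature and reactive astrocytes, read 10.5, 12.9 and 14.3 CPM in WT DMSO, 9.50, 12.8 and 13.2 in KO DMSO, 7.88, 10.1 and 6.25 in WT JQ1 and 8.18, 14.2 and 11.3 in KO JQ1. Its WT groups did not overlap and its KO groups did: the log2 change was -0.58 ± 0.20 in WT and -0.06 ± 0.19 in KO (edgeR adjusted p 0.024 and 0.81). Leaving out WT DMSO replicate 2 or 3, or WT JQ1 replicate 1 or 3, took the WT call of Gfap away, with an adjusted p of up to 0.098.

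Of the transcription regulators, Id3 fell and Id4 rose, though the rise of Id4 was called in neither genotype when scaled to spike-ins. Both encode inhibitors of basic helix-loop-helix factors and are targets of BMP signalling. Id3 read 2.43, 1.97 and 2.28 CPM in WT DMSO, 2.33, 2.03 and 2.47 in KO DMSO, 0.577, 0.669 and 0.653 in WT JQ1 and 0.739, 0.781 and 0.688 in KO JQ1. Its groups did not overlap, and it fell by 3.48-fold in WT and 3.04-fold in KO (log2 -1.80 ± 0.15 and -1.60 ± 0.15, edgeR adjusted p 3.5e-07 and 6.1e-07). Id4 read 23.4, 23.4 and 27.1 CPM in WT DMSO, 17.9, 18.4 and 20.6 in KO DMSO, 28.7, 27.2 and 31.5 in WT JQ1 and 23, 22.7 and 25.7 in KO JQ1. JQ1 libraries lay above DMSO libraries in both genotypes, and Id4 rose by 0.23 ± 0.081 in WT and 0.33 ± 0.081 in KO on the log2 scale (edgeR adjusted p 0.025 and 0.0032). Scaled to spike-ins, its WT change was -0.39 and its KO call was lost (edgeR adjusted p 0.572). The WT call of Id4 was also lost without WT DMSO replicate 1 or 2 or WT JQ1 replicate 3.

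The progenitor factors passed the test in no comparison. Sox2, which maintains neural progenitors, read 31.7, 34.9 and 42.3 CPM in WT DMSO, 31.1, 29.1 and 43.2 in KO DMSO, 37, 42.9 and 42.6 in WT JQ1 and 31.6, 37.5 and 42.1 in KO JQ1. Pax6, a factor of cortical radial glia, read 7.35, 7.61 and 9.21 CPM in WT DMSO, 5.52, 5.89 and 7.16 in KO DMSO, 8.09, 9.29 and 7.42 in WT JQ1 and 4.96, 7.14 and 7.21 in KO JQ1. DMSO and JQ1 libraries of both genes overlapped in each genotype. The log2 changes under JQ1 were 0.17 ± 0.14 and 0.11 ± 0.14 for Sox2, 0.061 ± 0.14 and 0.065 ± 0.15 for Pax6, and 0.19 ± 0.16 and 0.027 ± 0.16 for Sox9, a driver of gliogenesis.

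The responses of the genotypes were compared directly, and no member was called different: 0 were called higher and 0 lower for KO minus WT, as were 0% and 0% of all genes. At an unadjusted p under 0.05 there were 0 higher and 1 lower (edgeR), against 196 and 159 of all 15433 genes, and DESeq2 called 0 and 0. The member lower at that level was Nes, with a difference of -0.32 ± 0.14 on the log2 scale (95% interval -0.63 to -0.01). Gfap had the largest positive difference, 0.52 ± 0.28 (95% interval -0.08 to 1.11), so its loss of level in WT alone is not shown to differ from KO. For Slc25a18 the interval ran from -0.75 to 0.49 and for Aqp4 from -0.38 to 0.93.

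Between genotypes few members passed the test, though nearly all had log2 changes below 0. In DMSO 29 of 30 log2 changes lay below 0, with a median of -0.27 beside -0.015 over all genes tested. The test called 4 members lower and 0 higher, against 7.76% lower and 7.21% higher among all genes. In JQ1 28 of 30 lay below 0, with a median of -0.29 beside -0.0045, and 4 were called lower and 0 higher, against 4.13% and 4.84%. At an unadjusted p under 0.05 (edgeR), 14 members were lower and 0 higher in DMSO, and 12 lower and 1 higher in JQ1. Of all 15433 genes, 2672 were lower and 2200 higher at that level in DMSO, and 2029 and 2035 in JQ1. DESeq2 also called 4 members lower and 0 higher in each, though in DMSO without Ednrb. Over all genes DESeq2 called 1232 lower and 1405 higher in DMSO, and 829 and 1055 in JQ1. KO libraries lay below WT without overlap for 12 members in DMSO and 9 in JQ1, against 20.7% and 12.8% of all genes.

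**Figure D4:**
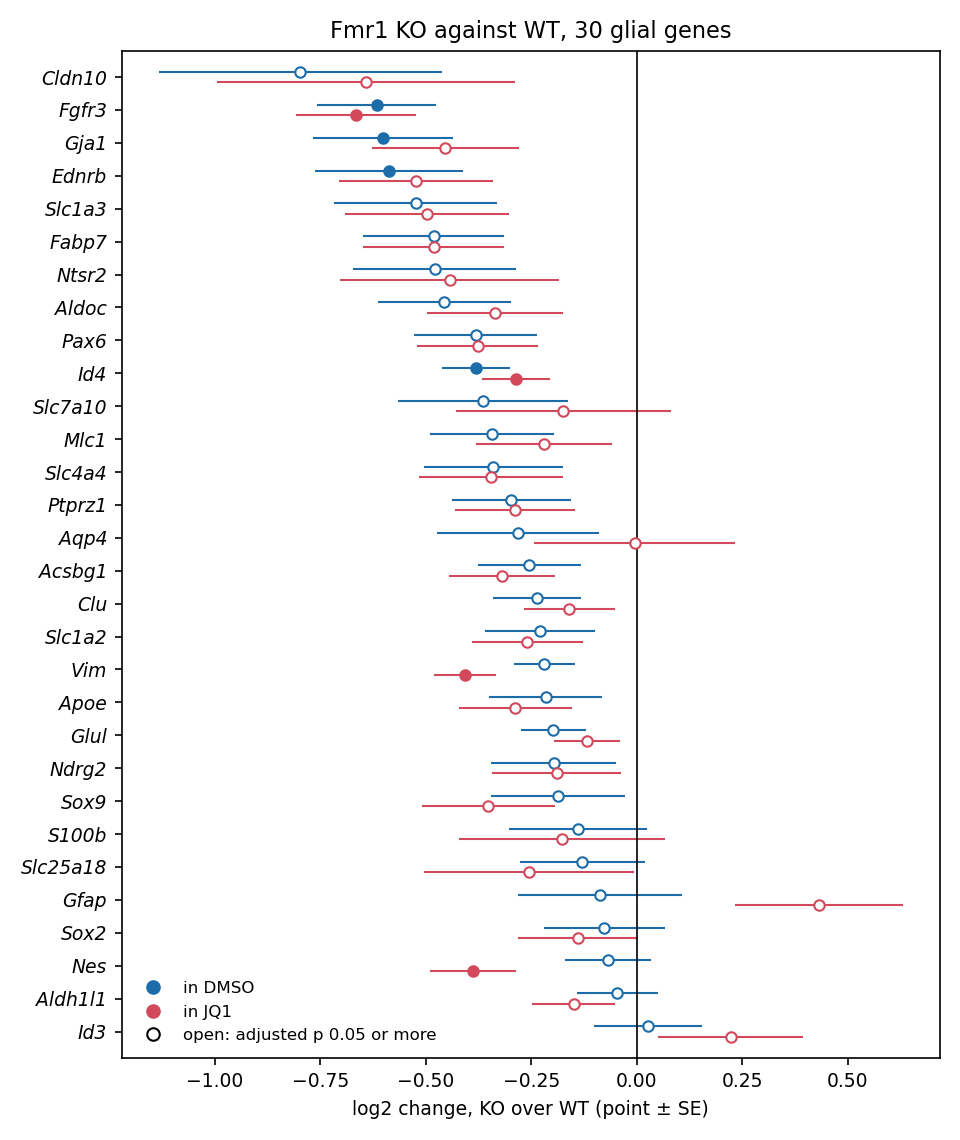
log2 change of KO over WT for the 30 tested glial genes in DMSO (blue) and in JQ1 (red), as point and SE from the edgeR fit of 3 libraries a group, with open points for adjusted p of 0.05 or more. In DMSO 29 of 30 points lie below 0 and in JQ1 28 of 30, with Gfap at 0.43 in JQ1.

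Fgfr3 and Id4 were called lower in KO under both treatments. The libraries differ between treatments, but same-numbered KO libraries deviated together, so the calls are not independent. Fgfr3 read 32.3, 37.6 and 37.3 CPM in WT DMSO, 19.8, 23.6 and 26.6 in KO DMSO, 30.5, 36.8 and 30.1 in WT JQ1 and 15.5, 24.6 and 21.1 in KO JQ1. KO libraries lay below WT libraries in both treatments, with log2 changes of -0.62 ± 0.14 in DMSO and -0.67 ± 0.14 in JQ1 (edgeR adjusted p 0.012 and 0.012). Id4, whose values stand above, also showed no overlap, with -0.38 ± 0.082 in DMSO and -0.29 ± 0.081 in JQ1 (edgeR adjusted p 0.009 and 0.042). In GENCODE 13.9% of Fgfr3 exon bases overlap G630022F23Rik, and 2.13% and 4.44% of those of Id4 overlap 2 noncoding RNAs, all on the opposite strand.

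Gja1 and Ednrb were called in DMSO alone. Gja1 read 44.9, 50.7 and 51.6 CPM in WT DMSO, 27.7, 32.3 and 37.1 in KO DMSO, 21.5, 27.3 and 19.5 in WT JQ1 and 11.3, 18.9 and 20.3 in KO JQ1. The DMSO groups did not overlap and the JQ1 groups did, with log2 changes of -0.60 ± 0.16 and -0.45 ± 0.17 (edgeR adjusted p 0.027 and 0.12). Ednrb read 60.3, 68.4 and 74.2 CPM in WT DMSO, 36, 46 and 53 in KO DMSO, 30.7, 39.3 and 30.6 in WT JQ1 and 15.6, 27.6 and 27 in KO JQ1. It showed no overlap under either treatment, with -0.59 ± 0.18 in DMSO and -0.52 ± 0.18 in JQ1 (edgeR adjusted p 0.038 and 0.087). Vim and Nes were called in JQ1 alone, with -0.41 ± 0.073 and -0.39 ± 0.10 there (edgeR adjusted p 0.0053 and 0.031) and -0.22 ± 0.073 and -0.068 ± 0.10 in DMSO. Whether treatment altered the genotype difference is the same contrast as the difference of responses above, which called none of the members.

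The other members were not called between genotypes. Slc1a3 had log2 changes of -0.52 ± 0.19 in DMSO and -0.50 ± 0.19 in JQ1 without overlap of the libraries, and Fabp7 -0.48 ± 0.17 and -0.48 ± 0.17, also without overlap. Pax6 had -0.38 ± 0.15 and -0.38 ± 0.14 (edgeR adjusted p 0.089 and 0.11), again with KO below WT in every library pair of a treatment. Values nearer 0 in DMSO were -0.046 ± 0.10 for Aldh1l1, -0.087 ± 0.19 for Gfap, -0.077 ± 0.14 for Sox2 and -0.28 ± 0.19 for Aqp4, with wide overlap. Id3 was the only member above 0 in DMSO, at 0.027 ± 0.13 on the log2 scale; scaled to spike-ins it stood at -0.80.

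Single libraries weighed on these genotype calls. KO DMSO replicate 1 was lowest of its group for 24 of 30 members and KO JQ1 replicate 1 for 27, and WT JQ1 replicate 2 was highest of its group for 26. Such extremes stood in every group. WT DMSO replicate 1 was lowest for 24 and WT JQ1 replicate 3 for 20. WT DMSO replicate 3 was highest for 24, and KO DMSO replicate 3 and KO JQ1 replicate 2 for 23 each. Without WT JQ1 replicate 2, 1 was called in JQ1. Without KO DMSO replicate 1, 0 of the 30 were called in DMSO. Fgfr3 and Id4 in DMSO lost their call in that setting alone, with edgeR adjusted p of 0.070 and 0.054. Gja1 also lost its call without WT DMSO replicate 2 or 3 or KO DMSO replicate 2, and Ednrb without each WT DMSO library or KO DMSO replicate 2. In JQ1, Id4 lost its call without any 1 of the 3 WT JQ1 libraries or KO JQ1 replicate 1 or 2, Nes without WT JQ1 replicate 1 or 2 or KO JQ1 replicate 1, and Fgfr3 without WT JQ1 replicate 2, and Vim kept its call without each. Other single libraries left 2 to 6 calls in DMSO and 2 to 5 in JQ1, the 2 being left without WT DMSO replicate 2 or 3 or KO DMSO replicate 2, and without WT JQ1 replicate 1 or KO JQ1 replicate 1. Without both KO replicate 3 libraries, 9 members were called lower in DMSO and 7 in JQ1, while the shares over all genes were 10.8% and 7.96%. Scaled to spike-ins, which moved the median of all genes to -0.82 in DMSO and -0.12 in JQ1, 30 were called lower in DMSO and 0 in JQ1, against 77.7% and 0.117% of all genes. Spike-in RNA took 0.348%, 0.168% and 0.244% of reads assigned to genes or spike-ins in KO DMSO replicates 1 to 3. In WT DMSO it took 0.118% to 0.173%, a range that holds KO DMSO replicate 2. The part of spike-in RNA in the result was not tested. Summed neuron markers were 10050 to 10557 CPM in WT DMSO and 10352 to 11180 in KO DMSO, and their part in the lower glial levels was not tested.

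In the authors' deposited table of KO against WT, 14 of the 26 members with an adjusted p were called lower and 0 higher, against 10.8% lower and 12.9% higher of its 11880 genes with an adjusted p. The authors' deposited table gives Fgfr3 a log2 change of -0.52 and Gja1 -0.51.

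Further genes of the same cells and pathways were read from lists beside the 31. Of 40 other astrocyte genes, 24 fell and 3 rose under JQ1 in WT and 25 fell and 3 rose in KO. The shares over all genes were 29.3% lower and 25.9% higher in WT, and 29.4% and 27.7% in KO. Rlbp1, a retinoid-binding protein, fell (log2 change -3.81 in WT and -3.88 in KO), as did the zinc transporter Slc39a12 (-2.71 and -2.84). Chst2, a sulfotransferase, rose by 0.57 and 0.38, and the metallothionein Mt2 by 0.28 and 0.33. Between genotypes 2 of the 40 were higher and 5 lower in DMSO, and 2 higher and 6 lower in JQ1, with medians of -0.26 and -0.26. Of all genes, 7.21% were higher and 7.76% lower in DMSO, and 4.84% and 4.13% in JQ1. Without both KO replicate 3 libraries 9 were lower in DMSO and 4 in JQ1, with 2 higher in each, and under JQ1 in KO 24 fell and 3 rose. Of all genes in that setting, 10.8% were lower and 9.42% higher in DMSO, and 7.96% and 7.84% in JQ1. The 4 lower in JQ1 thus lie near the share. Under JQ1 in KO, 25.7% of all genes fell and 25% rose in that setting. Scaled to spike-ins, 29 fell in WT and 8 in KO under JQ1 with 0 higher in either, against 37.7% and 8.51% of all genes lower. Between genotypes 36 were lower in DMSO and 0 in JQ1 with that scaling, with 0 higher, against 77.7% and 0.117% of all genes lower.

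Among genes of gliogenic signalling, 7 of 29 rose and 7 fell under JQ1 in WT, and 8 rose and 7 fell in KO. That split is near the one over all genes, where 25.9% rose and 29.3% fell in WT, and 27.7% and 29.4% in KO. Scaled to spike-ins, 8 were lower in WT, 3 lower in KO and 0 higher in either, against 37.7% and 8.51% of all genes lower. Leaving out both KO replicate 3 libraries, 6 were higher and 7 lower in KO, against 25% and 25.7% of all genes. The cytokine receptor Lifr rose by 0.71 in WT and 0.68 in KO, and Fgfr1 by 0.44 and 0.39 on the log2 scale. The BMP receptor Bmpr1b fell (log2 change -1.32 and -1.02), as did Socs3, a feedback inhibitor induced by STAT3 (-1.36 and -1.59). Between genotypes 9 of the 29 were lower and 2 higher in DMSO, and 7 lower and 0 higher in JQ1. The shares over all genes were 7.76% lower and 7.21% higher in DMSO, and 4.13% and 4.84% in JQ1. Scaled to spike-ins, 26 were lower in DMSO and 0 in JQ1, against 77.7% and 0.117% of all genes. Without both KO replicate 3 libraries, 9 were lower and 1 higher in DMSO, and 10 lower and 1 higher in JQ1. Of all genes in that setting, 10.8% were lower and 9.42% higher in DMSO, and 7.96% and 7.84% in JQ1. Nfib, a nuclear factor of gliogenesis, was lower in KO, with log2 changes of -0.45 in DMSO and -0.68 in JQ1.

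Of 20 genes of reactive astrocytes 11 were tested, and 9 fell under JQ1 in each genotype with 0 higher. Over all genes the shares lower were 29.3% in WT and 29.4% in KO. Serpina3n, an inhibitor of serine proteases, fell (log2 change -2.32 in WT and -2.39 in KO), as did Cp, ceruloplasmin (-2.27 and -2.38). Without both KO replicate 3 libraries 12 were tested, and 11 fell in KO, against 25.7% of all genes. Scaled to spike-ins 9 fell in WT and 6 in KO, against 37.7% and 8.51% of all genes. Lcn2 had 0 counts in all WT libraries, and Steap4 and C3 did not pass the filter on low counts.

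Lists of markers of other cells also held calls under JQ1, and their part in the response was not tested. Over all genes, 29.3% were lower and 25.9% higher in WT, and 29.4% and 27.7% in KO. Counts near these shares show nothing particular to a list. These were the falls of oligodendrocyte lineage markers, the falls of microglia markers in WT and the rises of proliferation markers. Scaled to spike-ins, 37.7% of all genes were lower in WT and 8.51% in KO. Of 10 tested microglia markers 4 fell in WT and 6 in KO, with summed levels of 13.5 to 15.4 CPM in WT DMSO and 9.50 to 11.8 in WT JQ1, and 14.4 to 19.3 and 10.5 to 14.5 in KO. Tmem119 and P2ry12, which define microglia, were too low to be tested. Of 8 fibroblast and mural markers 4 fell in WT and 5 in KO, with sums of 29.1 to 38.1 CPM in WT DMSO, 16 to 21.2 in WT JQ1, 15.2 to 18.7 in KO DMSO and at most 11.4 in KO JQ1. Of 10 proliferation markers 3 rose and 0 fell under JQ1 in each genotype, against 0 higher, 2 lower in WT and 0 lower in KO with scaling to spike-ins. Of these 10, 4 were lower in KO than in WT in DMSO and 2 in JQ1, against 7.76% and 4.13% of all genes. Their sums were 263 to 303 CPM in WT DMSO and 208 to 252 in KO DMSO. The proliferation markers lower in KO numbered 7 in DMSO and 6 in JQ1 without both KO replicate 3 libraries, against 10.8% and 7.96% of all genes. Of 6 ependymal markers 3 were tested, Foxj1, Rsph1 and Fam183b, and all 3 fell in each genotype, with medians of -0.89 in WT and -1.005 in KO and sums of 9.71 to 10.3 CPM in WT DMSO, 6.68 to 7.70 in WT JQ1, 11.5 to 12.8 in KO DMSO and 8.28 to 8.89 in KO JQ1. Scaled to spike-ins 3 fell in WT and 1 in KO. Tmem212, Ccdc153 and Dynlrb2 did not pass the filter on low counts. Of 9 oligodendrocyte lineage markers 3 fell in each genotype and 1 rose in WT. Of 11 neuron markers 6 fell in each genotype, with 3 higher in WT and 4 in KO; scaled to spike-ins, 6 fell and 0 rose in WT and 0 fell and 1 rose in KO. Without both KO replicate 3 libraries, 2 of 8 fibroblast and mural markers and 2 of 9 oligodendrocyte lineage markers fell in KO. In that setting 5 of 10 microglia markers and 6 of 11 neuron markers fell, with 2 neuron markers higher. Of all genes 25.7% fell and 25% rose there, so the fibroblast and mural and the oligodendrocyte lineage counts lie near the share.

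Promoters were looked at because members with the same direction could share sequence. RefSeq promoter windows, from 250 bases before to 50 bases after the start site on build GRCm38.p6, were found for 28 of the 31 members, 37 windows in all, with no entry for Aqp4, Clu and Sox9. The windows of Slc25a18, S100b and Mlc1 are shown as those of members that fell far, and that of Gfap as a defining marker. Those of Nes and Id4 are shown as the 2 that rose with scaling to gene counts. They lie at chr6:120773518-120773817, plus strand (Slc25a18), chr10:76253586-76253885, plus strand (S100b), chr15:88978504-88978803, minus strand (Mlc1), chr11:102897151-102897450, minus strand (Gfap), chr3:87970843-87971142, plus strand (Nes) and chr13:48260866-48261165, plus strand (Id4), and each is printed 5′ to 3′ along the gene's strand. Capitals mark matches on either strand to the letters TTCNNNGAA (STAT), TGGGAA (RBPJ, the Notch factor), ACAATG (SOX) or TATAAA, the core promoter element that places the start site.
Slc25a18: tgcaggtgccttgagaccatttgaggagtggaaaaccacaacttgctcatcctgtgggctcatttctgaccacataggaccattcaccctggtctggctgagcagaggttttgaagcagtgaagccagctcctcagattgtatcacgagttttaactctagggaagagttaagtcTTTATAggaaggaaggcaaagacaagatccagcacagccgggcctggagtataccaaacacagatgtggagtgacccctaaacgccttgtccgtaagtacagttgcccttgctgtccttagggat
S100b: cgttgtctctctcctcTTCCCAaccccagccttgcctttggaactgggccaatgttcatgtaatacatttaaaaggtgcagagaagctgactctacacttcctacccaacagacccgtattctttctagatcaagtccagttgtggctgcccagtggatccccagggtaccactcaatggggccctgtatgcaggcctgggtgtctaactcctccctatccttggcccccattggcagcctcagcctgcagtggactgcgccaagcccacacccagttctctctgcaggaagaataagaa
Mlc1: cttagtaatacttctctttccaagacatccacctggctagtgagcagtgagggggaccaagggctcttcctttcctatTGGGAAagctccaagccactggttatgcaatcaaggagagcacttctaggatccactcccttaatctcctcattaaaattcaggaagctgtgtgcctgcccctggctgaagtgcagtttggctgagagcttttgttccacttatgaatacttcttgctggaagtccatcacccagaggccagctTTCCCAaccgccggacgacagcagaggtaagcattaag
Gfap: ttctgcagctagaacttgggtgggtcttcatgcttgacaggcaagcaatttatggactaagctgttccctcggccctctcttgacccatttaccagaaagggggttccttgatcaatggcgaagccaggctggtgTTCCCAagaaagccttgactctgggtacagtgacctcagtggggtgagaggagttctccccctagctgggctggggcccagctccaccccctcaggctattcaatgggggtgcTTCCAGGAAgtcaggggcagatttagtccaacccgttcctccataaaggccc
Nes: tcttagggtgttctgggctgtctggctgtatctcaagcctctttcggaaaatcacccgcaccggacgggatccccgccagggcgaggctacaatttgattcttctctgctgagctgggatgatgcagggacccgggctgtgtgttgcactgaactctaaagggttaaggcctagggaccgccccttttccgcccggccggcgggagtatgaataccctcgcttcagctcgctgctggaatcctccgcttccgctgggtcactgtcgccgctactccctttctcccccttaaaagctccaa
Id4: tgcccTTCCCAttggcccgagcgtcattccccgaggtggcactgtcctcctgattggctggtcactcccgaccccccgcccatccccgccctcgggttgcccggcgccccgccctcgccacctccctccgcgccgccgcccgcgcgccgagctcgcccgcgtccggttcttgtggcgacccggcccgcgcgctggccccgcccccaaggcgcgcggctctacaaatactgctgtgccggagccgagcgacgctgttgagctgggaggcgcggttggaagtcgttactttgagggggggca

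The Gfap window held 1 STAT and 1 RBPJ match, that of Mlc1 2 RBPJ matches, those of S100b and Id4 1 RBPJ match each, that of Slc25a18 1 match to TATAAA, and that of Nes none of the 4. STAT letters were in 13.5% of member windows and 8.30% of all 32851 windows, and RBPJ letters in 35.1% and 25.6%; a STAT match can overlap an RBPJ match. E-box letters CANNTG, not capitalised, were in 59.5% and 72.3%, SOX letters in 2.70% and 12.6%, and the letters TATAAA in 13.5% and 13.6%. A match is a description of letters, not a binding site.

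The shown windows differed in CpG dinucleotides, a split chosen after the values were seen. Slc25a18 had 4, and S100b, Mlc1 and Gfap 3 each, whereas Nes had 18 and Id4 39. Of the 12 tested members with under 10 CpG in the window richest in them, 9 fell in WT and 0 rose, the median of their log2 changes being -0.77. Of the 15 with at least 10 CpG, 7 fell and 2 rose, with a median of -0.35. In KO the counts were 8 and 0 of 12, and 7 and 2 of 15, with medians of -0.74 and -0.39. Exceptions stood on both sides. Slc1a3 with 3 and Slc1a2 with 1 CpG did not pass the test, while Id3 with 19 and Slc7a10 with 24 fell by over 2-fold. Slc4a4, with the most CpG at 50, fell as well, by -0.84 on the log2 scale in each genotype. The only Slc1a2 window, at chr2:102706188-102706487, lies inside the gene, which starts at 102658659 in GENCODE. Its count may therefore not be that of the main promoter.

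Across all tested genes with a window the same split read alike: of 1587 with under 10 CpG 51.5% fell under JQ1 in WT, and of 8814 with at least 10, 25.9%, with medians of -0.45 and 0.032. In KO the shares were 52.2% and 25.9%. Between genotypes in DMSO the members' medians were -0.30 under and -0.30 over the limit.

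**Figure D5:**
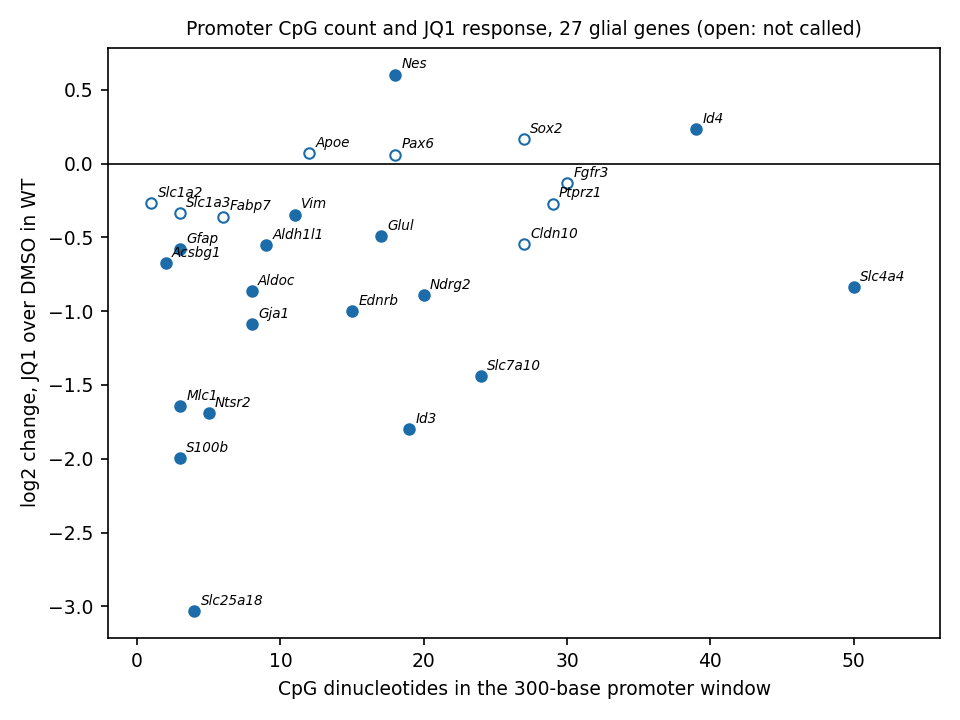
CpG dinucleotides in the promoter window (x axis, the richest window of each gene) against the log2 change under JQ1 in WT (y axis) for the 27 tested glial genes with a window, with open points for genes not called. Slc25a18 lies at 4 CpG and -3.03, Id4 at 39 CpG and 0.23, and Slc7a10 with 24 CpG lies low at -1.44.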

How the data were processed

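RNA was measured as single reads from 12 libraries. The submitters' processing notes name TopHat2 2.1.0, SAMtools 0.1.19, HTSeq 0.6.1 and the mm9 build, with no order or settings. The deposited table holds raw counts per gene, with 92 ERCC spike-in rows that were kept out of library sizes. The authors' deposited DESeq2 table of KO against WT gives a mean signal, log2 changes, a Wald score and p-values, and entered no test.

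Counts were fitted with edgeR 4.0.16 (R 4.3.3): filterByExpr at a minimum count of 10, which kept 15433 of 37310 genes, TMM scaling, 4 group means and quasi-likelihood F tests with Benjamini-Hochberg adjustment. Residual degrees of freedom were 8. CPM used TMM-scaled library sizes, and lengths came from GENCODE M21 exons. DESeq2 1.42.0 was an alternative. On simulated data with 200 changed genes the fit recovered 83% of 2-fold and 33% of 1.25-fold changes for JQ1 in WT, and 79% and 41% for KO against WT in DMSO.

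The members and lists were chosen with earlier results of these data known. Values are given per library for the 4 members of smallest adjusted p per direction and comparison and for 8 defining markers. Same-numbered KO libraries in JQ1 and DMSO deviated together (r = 0.228, 0.287 and 0.212), which pairs them, and WT ones less (0.094, 0.158 and 0.155).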

Additional observations from a re-analysis of the deposited data

How the results depend on the processing

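JQ1 calls were the steadier ones: 17 of 20 in WT kept direction and side of the threshold in all 15 settings tried, and 9 of 19 in KO, where 9 of the other 10 lost it with spike-in scaling alone and Nes in 7 settings. Of the 4 genotype calls in DMSO and the 4 in JQ1, each was lost in at least 1 setting. Spike-in scaling moved the median log2 change of all genes to -0.82 (genotype, DMSO), -0.12 (genotype, JQ1), -0.63 (JQ1 in WT), 0.067 (JQ1 in KO) and 0.70 (difference). With it, members called lower were 30, 0, 24 and 9 in the first 4 of these comparisons and members called higher were 0 in each, Nes and Id4 under JQ1 in WT turned to -0.018 and -0.39, and Id3 for KO against WT in DMSO to -0.80.

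For KO against WT in DMSO (4 lower), 11 were lower with no filter, 8 in a fit of the 2 groups only, 9 without both KO replicate 3 libraries, and 0 to 6 without single libraries. In JQ1 (4 lower) the same settings gave 9, 2, 7 and 1 to 5. The share of all genes lower moved as well. It was 7.76% in DMSO and 4.13% in JQ1 with all libraries, and 10.8% and 7.96% without both KO replicate 3 libraries. Shares for the other settings of these 2 sentences are not given here, so those counts are not shown to be particular to the members. Of the 2 higher under JQ1 in KO, 1 was left with a 1 CPM filter and 1 without both KO replicate 3 libraries; single libraries left 1 to 2 in KO and 1 to 2 in WT. With the replicate number as a block, 14 members in DMSO and 12 in JQ1 were lower in KO, against 9.73% and 6.4% of all genes, where the libraries share only a number. The block changed no JQ1 count by over 1.5 times: within genotype, 23 fell and 3 rose in WT, and 22 and 2 in KO. Causes were not tested. Members near 1 CPM, such as S100b, Slc7a10 and Ntsr2, are limited by depth and spread.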
